A study of Mus musculus with 12 samples.

Results

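The genes of MHC class I antigen presentation and of the immunoproteasome were followed in the colon of mice with chemically induced colitis. The set held 10 genes of the 55335 in the table of all genes, taken by symbol: B2m, H2-K1, H2-D1, Tap1, Tap2, Tapbp, Psmb8, Psmb9, Psmb10 and Nlrc5. All 10 identifiers carried the same symbol in a later mouse annotation, and all 10 were among the 13794 genes with a mean of at least 1 FPKM (fragments scaled to transcript length and library size) over the 12 libraries, which were the genes tested. Total RNA from whole colon of wild-type mice had been sequenced in 4 groups of 3 libraries: trinitrobenzene sulfonic acid (TNBS) with normal saline, TNBS with thymopentin, dextran sulfate sodium (DSS) with normal saline, and DSS with thymopentin. Every library came from a mouse with colitis, so no level of a healthy colon stands beside these values. TNBS attaches to proteins of the colon wall and makes them targets of T cells, DSS damages the epithelium directly, and thymopentin is a short synthetic peptide modelled on the thymic protein thymopoietin. The sources used here do not give strain, sex, age, dose or timing, nor whether the 2 models were run in mice of 1 strain or whether each library came from 1 animal. The p-values therefore measure the spread between these libraries.

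Class I molecules show peptides from the cell's own proteins to CD8 T cells and are read by inhibitory receptors of natural killer cells. The peptides are cut by the proteasome, carried into the endoplasmic reticulum by the Tap1 and Tap2 transporter, held near the empty class I molecule by tapasin (Tapbp), and bound by a heavy chain (H2-K1 or H2-D1) paired with the light chain beta-2 microglobulin (B2m). Interferon induces Psmb8, Psmb9 and Psmb10, which take the places of the constitutive catalytic subunits Psmb5, Psmb6 and Psmb7 in newly made proteasomes. Nlrc5 is the transactivator that binds with other factors at class I promoters.

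FPKM summed to 384431 to 417581 in the TNBS libraries and to 446364 to 532510 in the DSS libraries, with no overlap, and 13160 to 13805 genes a library were at 1 FPKM or more. Read totals were not stated, so the precision behind an FPKM is unknown for most genes. The authors' tables of selected genes hold values that turn back into whole reads for 5 of the genes in TNBS, and there the smallest number was 135 reads of Nlrc5 in TNBS thymopentin 3 and the largest 40986 reads of B2m in TNBS saline 1. Libraries TNBS saline 3 and TNBS thymopentin 3 stood low in their groups for the class I genes: the first was the lowest of its group in 9 of 10 genes and the second in 10 of 10. TNBS thymopentin 2 was the highest of its group in 9 of 10 genes.

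By the reference annotation 7 of the genes lie on chromosome 17, in and beside the MHC, with Nlrc5 and Psmb10 on chromosome 8 and B2m on chromosome 2. Psmb9, Tap1, Psmb8 and Tap2 follow each other on chromosome 17 with no other listed gene between them. A RefSeq promoter window (GRCm38.p6, 250 bases before to 50 after the start) was matched for 8 of the 10 genes. Those of B2m, Tap1 and Psmb8 are shown because they stand for the light chain, the transporter and the immunoproteasome and carry different motifs. The window of Tap1 shares 275 bases with that of Psmb9, which is read in the opposite direction. They are written 5′ to 3′ on the coding strand, with capitals marking the motif matches described after them.
B2m, chr2:122147437-122147736, plus strand: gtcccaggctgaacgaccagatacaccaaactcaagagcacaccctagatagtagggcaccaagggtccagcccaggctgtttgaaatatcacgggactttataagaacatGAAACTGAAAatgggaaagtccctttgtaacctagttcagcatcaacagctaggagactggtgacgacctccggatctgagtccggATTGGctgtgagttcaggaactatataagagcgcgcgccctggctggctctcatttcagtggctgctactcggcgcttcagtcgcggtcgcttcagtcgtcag
Tap1, chr17:34187306-34187605, plus strand: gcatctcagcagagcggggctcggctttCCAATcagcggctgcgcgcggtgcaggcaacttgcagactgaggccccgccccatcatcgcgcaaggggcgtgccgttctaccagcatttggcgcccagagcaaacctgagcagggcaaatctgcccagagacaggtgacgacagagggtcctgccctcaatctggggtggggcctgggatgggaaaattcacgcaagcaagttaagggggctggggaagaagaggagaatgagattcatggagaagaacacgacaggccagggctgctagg
Psmb8, chr17:34197945-34198244, plus strand: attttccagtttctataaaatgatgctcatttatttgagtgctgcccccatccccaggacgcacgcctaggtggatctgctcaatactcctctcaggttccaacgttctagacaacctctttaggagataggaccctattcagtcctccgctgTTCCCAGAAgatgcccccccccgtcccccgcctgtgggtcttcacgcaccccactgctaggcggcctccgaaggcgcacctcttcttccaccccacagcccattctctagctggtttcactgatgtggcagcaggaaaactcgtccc

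Motifs were searched as letters on both strands of every RefSeq promoter window. The interferon regulatory factor motif, a pair of GAAA cores with 2 bases between them, was in B2m alone of the 8 genes, 139 bases before the start, and in 3.44% of all 32851 windows. The STAT motif, TTC and GAA with 3 bases between them, was in Psmb8 alone, 97 bases before the start, and in 8.30% of windows. The CCAAT box, ATTGG on one strand or the other, was in 6 of the 8 genes (B2m, H2-K1, H2-D1, Tap1, Psmb9 and Tapbp) and in 37.4% of windows. The box of Tap1 and that of Psmb9 are the same site, in the bases their windows share, so these genes are not separate cases. H2-K1 and H2-D1 each held the box in both directions. The short NF-kB core, GGG and CC with 5 bases between them, was in 5 of 8 genes and in 50.8% of windows. Its matches in Tap1 and Psmb9 are again shared sites. This core is not in capitals, and its matches in these 8 genes did not overlap the other motifs. A match describes letters in this window only. The lack of a match does not mean that a gene has no such site, since variants with other letters were not searched.

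The 4 groups stood in the same order for 7 of the 10 genes. The lowest mean was in TNBS thymopentin, then TNBS saline, then DSS thymopentin, with DSS saline the highest. For B2m, H2-D1, Psmb9 and Psmb10 no neighbouring groups overlapped in that order. B2m, the most abundant of the 10, had group means of 505 ± 82.0, 1047 ± 136, 2840 ± 186 and 3350 ± 151 FPKM (SD, n = 3). Psmb10 had 28.4 ± 6.61, 46.6 ± 3.28, 63.1 ± 4.20 and 82.2 ± 4.35 FPKM. For Tap2 and Psmb8 the TNBS groups overlapped each other, and for Nlrc5 the DSS groups did. H2-K1 and Tap1 had their highest mean in DSS thymopentin instead, with overlap between TNBS saline and DSS saline and between the DSS groups, and for H2-K1 between the TNBS groups too. Tapbp ran the other way, from 15.8 ± 2.24 FPKM in DSS saline to 32.0 ± 10.8 in TNBS saline, and every neighbouring pair of its groups overlapped.

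**Figure D1:**
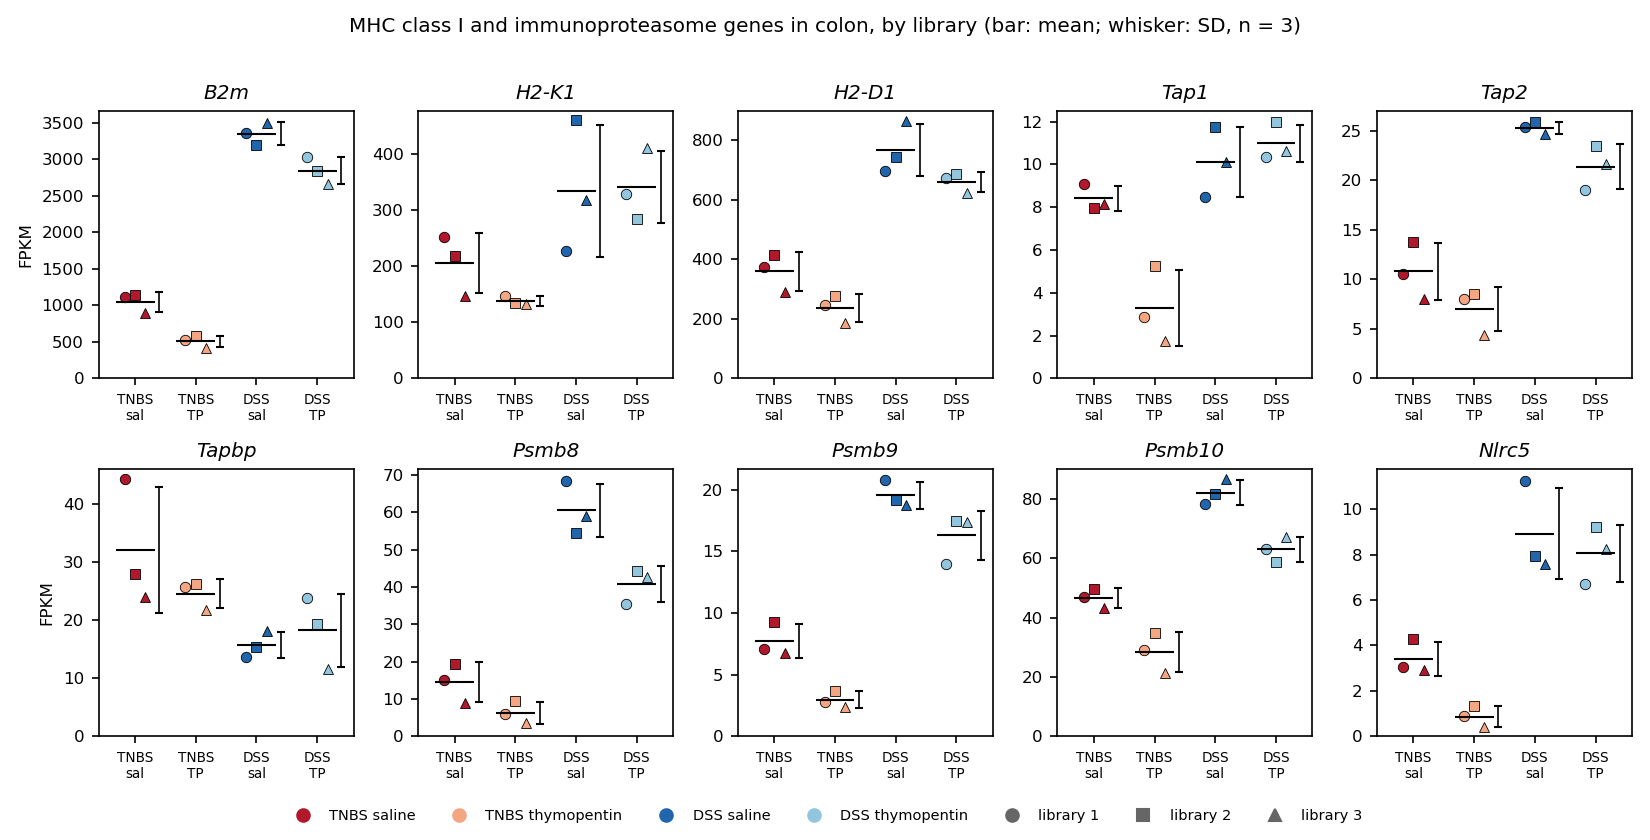
FPKM of the 10 genes (vertical axis, from 0) in the 12 libraries, with a bar for the group mean and a whisker for the SD (n = 3). TNBS thymopentin has the lowest mean for 9 genes, a DSS group has the highest for the same 9, and Tapbp has its highest mean in TNBS saline.

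Thymopentin was compared with saline within TNBS colitis on log2(FPKM + 1) in limma, where genes at an adjusted p under 0.05 were called. B2m, Psmb9 and Nlrc5 were called lower, which is 3 of 10, against 0.384% of all genes tested. The other 7 genes were not called, although all 10 fold changes were below 0 and 8 had an unadjusted p under 0.05, as did 12.7% of all genes. The median of the 10 was -0.89, against 0.03 over all genes tested. In 6 genes (B2m, H2-D1, Tap1, Psmb9, Psmb10 and Nlrc5) every thymopentin library lay below every saline library, as in 6.75% of all genes.

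Of the class I chains, B2m was at 1112, 1138 and 891 FPKM in TNBS saline 1, 2 and 3 and at 524, 576 and 415 FPKM in TNBS thymopentin 1, 2 and 3. The lowest saline library was well above the highest thymopentin library, and B2m fell by 1.06 ± 0.14 on the log2 scale (SE, limma adjusted p = 0.00951). H2-D1, a classical heavy chain, was at 376, 415 and 289 FPKM with saline and at 246, 276 and 186 FPKM with thymopentin. Its groups did not overlap, but the log2 fold change of -0.61 ± 0.17 did not pass (limma adjusted p = 0.153). H2-K1, the other classical heavy chain, was at 253, 218 and 147 FPKM with saline and at 148, 135 and 133 FPKM with thymopentin. TNBS saline 3 lay among the thymopentin libraries for this gene, and its fold change of -0.54 ± 0.26 was not called (limma adjusted p = 0.437).

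Of the transport and loading genes, none was called. Tap1, the transporter subunit encoded beside Psmb9, was at 9.07, 7.99 and 8.17 FPKM with saline and at 2.89, 5.24 and 1.73 FPKM with thymopentin. These groups lay apart, with TNBS thymopentin 2 nearest to saline, and the log2 fold change of -1.22 ± 0.24 missed the threshold (limma adjusted p = 0.0542). Tap1 was called when genes had to reach a mean of 5 FPKM (adjusted p = 0.0472) and without TNBS thymopentin 2 (adjusted p = 0.00527), both in limma. Tap2, its partner, was at 10.5, 13.8 and 8.04 FPKM with saline and at 7.98, 8.52 and 4.42 FPKM with thymopentin. The groups overlapped and the fold change was -0.58 ± 0.22 (limma adjusted p = 0.301). Tapbp was at 44.3, 27.9 and 23.9 FPKM with saline and at 25.7, 26.2 and 21.7 FPKM with thymopentin, and TNBS saline 1 stood above all the others. Its fold change was -0.33 ± 0.26 (limma adjusted p = 0.676).

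Of the inducible proteasome subunits, Psmb9 was at 7.06, 9.28 and 6.75 FPKM with saline and at 2.79, 3.70 and 2.35 FPKM with thymopentin. Psmb9 carries the site that replaces that of Psmb6, and with no overlap between groups it fell by 1.14 ± 0.15 on the log2 scale (limma adjusted p = 0.00875). Psmb8, which replaces Psmb5, was at 15.0, 19.5 and 8.87 FPKM with saline and at 5.89, 9.40 and 3.48 FPKM with thymopentin. Here TNBS saline 3 lay below TNBS thymopentin 2, and the log2 fold change of -1.11 ± 0.31 was not called (limma adjusted p = 0.148). Between libraries of the same replicate number Psmb8 was lower with thymopentin each time, and with that number as a block it was called (limma adjusted p = 0.0319). The sources used here do not say that equal numbers are pairs. Psmb10, which replaces Psmb7, was at 47.0, 49.7 and 43.1 FPKM with saline and at 29.1, 34.7 and 21.5 FPKM with thymopentin. The groups lay apart, with a log2 fold change of -0.72 ± 0.14 that missed the threshold (limma adjusted p = 0.0575) and passed it after median-ratio rescaling (0.0479).

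Nlrc5, the transactivator of class I genes, had the largest fold change of the 10 in TNBS. It was at 3.07, 4.28 and 2.91 FPKM with saline and at 0.885, 1.33 and 0.395 FPKM with thymopentin. All saline libraries lay above all thymopentin libraries, and Nlrc5 fell by 1.26 ± 0.21 on the log2 scale (limma adjusted p = 0.0283). At such levels the added 1 FPKM shrinks a fold change: with 0.1 FPKM added it was -1.97 ± 0.34 (limma adjusted p = 0.0301). Nlrc5 was no longer called when TNBS saline 1 or 2 was left out, nor on leaving out TNBS thymopentin 1 or 3 or DSS thymopentin 3, where its limma adjusted p lay between 0.0548 and 0.0887, and with no filter on low values (0.0742). B2m was also not called with no filter (limma adjusted p = 0.0620), and none of the 3 was called when the TNBS groups were fitted alone (0.102 to 0.151).

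**Figure D2:**
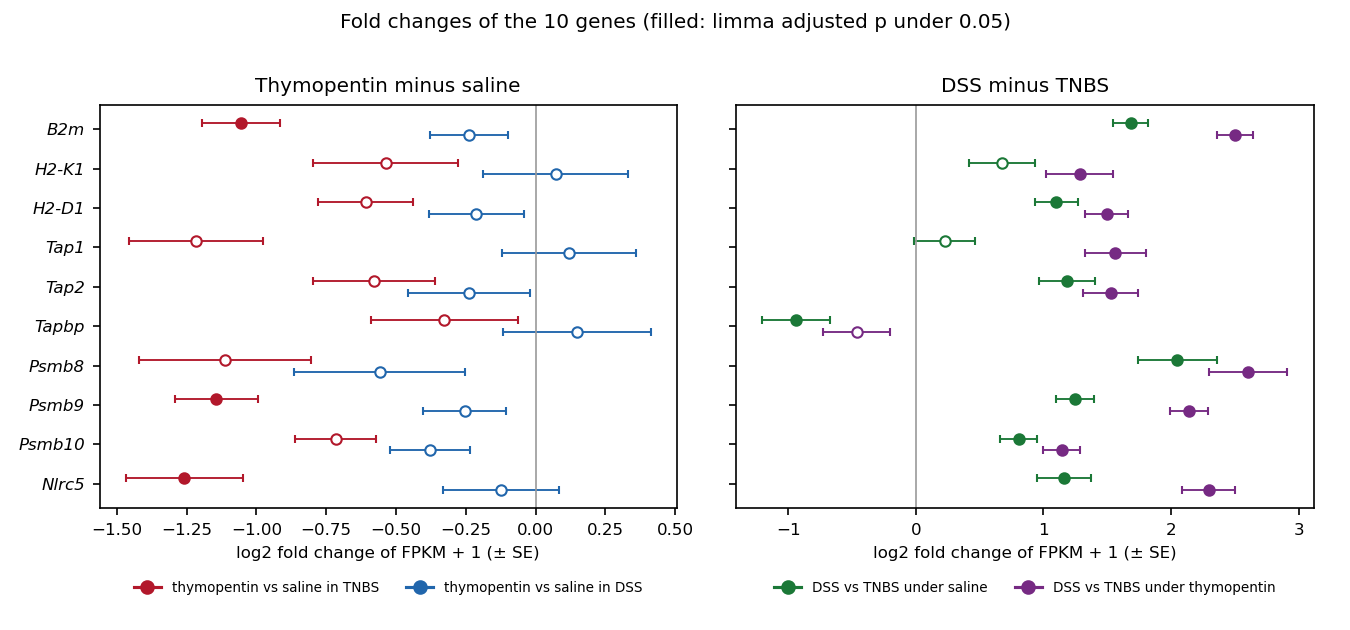
Log2 fold change of FPKM + 1 with its SE for the 10 genes, for thymopentin against saline in each model (left) and for DSS against TNBS under each treatment (right), with filled points for genes called by limma. In TNBS all 10 points lie below 0 and 3 are filled, in DSS none is filled, and the DSS against TNBS points lie above 0 except for Tapbp.

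The authors' deposited table of selected genes in TNBS lists 5 of the 10 genes among 1173. In that table B2m had a log2 fold change of -1.12 (FDR 7.47e-10), Psmb9 -1.45 (FDR 8.61e-11), Nlrc5 -2.17 (FDR 1.72e-06), Tap1 -1.55 (FDR 0.000677) and Psmb8 -1.31 (FDR 0.167). Behind the authors' deposited table, Nlrc5 had 1122, 1344 and 1105 reads in the saline libraries against 313, 444 and 135 in the thymopentin libraries. Psmb9 had 1112, 1258 and 1106 reads against 427, 531 and 344. The authors' deposited table for DSS lists 2326 genes and none of the 10. Both lists hold only genes that had at least doubled or halved by the authors' own values.

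Cell type markers were read beside the class I genes in TNBS. The 10 cytotoxic and natural killer cell markers summed to 12.4, 13.2 and 6.43 FPKM with saline and to 3.39, 4.14 and 1.38 with thymopentin, with no overlap. Gzma, a granule protease, was the 1 of 4 tested that was called, and it fell by 1.89 ± 0.34 on the log2 scale (limma adjusted p = 0.0385). Of that list Prf1, Ncr1, Klrb1c, Klrk1 and Eomes stayed under 1 FPKM in every library. The 10 T cell markers summed to 13.0, 21.6 and 6.13 FPKM with saline and to 8.46, 11.9 and 2.75 with thymopentin, which overlapped, and none of the 9 tested was called. The 5 pan-leukocyte markers summed to 64.9, 101 and 13.2 FPKM with saline and to 41.0, 64.9 and 12.2 with thymopentin, which overlapped too, and none was called. Library 3 of both TNBS groups, low for the class I genes, was also the lowest of its group in each of these 3 sums. It was the lowest too in the macrophage and dendritic cell and B cell sums. In the smooth muscle and endothelial sums it was the highest of its group. Macrophage and dendritic cell sums (65.1 to 176 and 61.9 to 129 FPKM) and B cell sums (1.68 to 112 and 2.08 to 68.4 FPKM) overlapped between saline and thymopentin, with no call. Fibroblast sums were 68.4 to 75.2 FPKM with saline and 99.4 to 124 with thymopentin, with no overlap, and Dcn and Lum of 6 tested were called higher. Epithelial sums were 6311 to 9755 FPKM with saline and 6187 to 6797 with thymopentin. Of 11 tested Slc26a3 was called higher, while the other 10 lay below 0. The median log2 fold change of the 11 was -0.29, against 0.03 over all genes. Smooth muscle and endothelial sums overlapped, with no call. Beside these counts, 0.384% of all genes tested were called lower and 39 of 13794 higher. The part of these cell types in the fall of the class I genes was not tested. In whole colon, fewer cells of a type and less RNA per cell cannot be told apart.

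**Figure D3:**
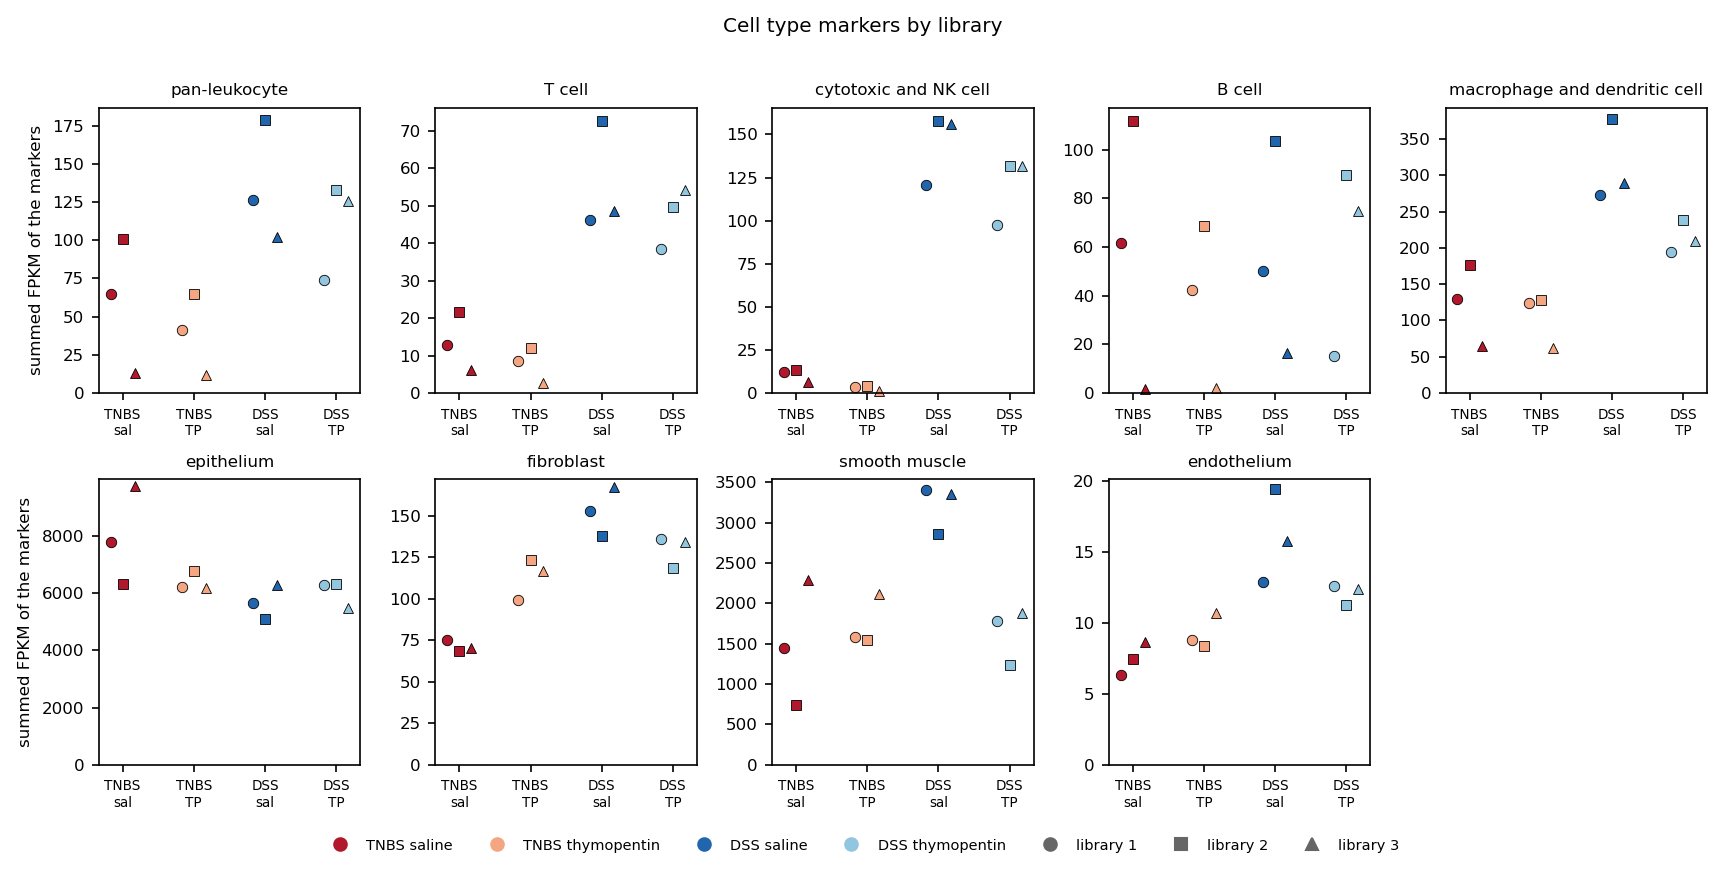
Summed FPKM of the markers of 9 cell types (vertical axis, from 0) in the 12 libraries. Between saline and thymopentin in TNBS the cytotoxic and NK sums and the fibroblast sums do not overlap, in opposite directions, and in DSS those of smooth muscle, fibroblasts, endothelium and macrophages and dendritic cells do not, all lower with thymopentin.

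In DSS colitis limma called none of the 10 genes between thymopentin and saline, against 17.0% of all genes tested in either direction and 4.30% lower. Psmb10 alone had an unadjusted p under 0.05, as did 33.8% of all genes (limma adjusted p = 0.0945). The median fold change was -0.23, against 0.12 over all genes. Rescaling the libraries by median ratios took the median of all genes to -0.0093, so directions in DSS are best read against it: relative to all genes the 10 had a median of -0.35 and 9 lay lower. Of these 9, H2-K1 (-0.048) and Tap1 (-0.0005) lay close to the median of all genes. In 6 genes (B2m, H2-D1, Tap2, Psmb8, Psmb9 and Psmb10) every thymopentin library lay below every saline library, as in 11.5% of all genes.

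B2m in DSS was at 3359.9, 3195 and 3496 FPKM with saline and at 3029, 2834 and 2657 FPKM with thymopentin. The groups did not overlap, but the log2 fold change was only -0.24 ± 0.14 (limma adjusted p = 0.253), and it turned to 0.19 after quantile normalization. H2-D1 was at 696, 743 and 863 FPKM with saline and at 673, 686 and 622 with thymopentin, with a fold change of -0.21 ± 0.17. H2-K1 ranged from 227 to 461 FPKM with saline and from 285 to 412 with thymopentin, and its fold change was 0.07 ± 0.26, or -0.09 after median-ratio rescaling. The H2-D1 groups lay just apart, those of H2-K1 overlapped, and neither gene was called.

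Of the transport genes in DSS, Tap2 was at 25.4, 25.8 and 24.7 FPKM with saline and at 18.96, 23.5 and 21.7 FPKM with thymopentin (log2 fold change -0.24 ± 0.22, limma adjusted p = 0.475). Tap1 was at 8.46, 11.7 and 10.1 FPKM with saline and at 10.4, 11.97 and 10.6 FPKM with thymopentin. The Tap1 groups overlapped, with a fold change of 0.12 ± 0.24 that was -0.03 after median-ratio rescaling and -0.01 after quantile normalization. Tapbp ranged from 13.7 to 18.2 FPKM with saline and from 11.5 to 23.8 with thymopentin, with a fold change of 0.15 ± 0.26 that was -0.0039 after median-ratio rescaling. Nlrc5 ranged from 7.60 to 11.2 FPKM with saline and from 6.70 to 9.20 with thymopentin, and its fold change was -0.12 ± 0.21 (limma adjusted p = 0.716).

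The proteasome subunits held the lowest fold changes of the 10 in DSS. Psmb8 was at 68.3, 54.5 and 59.0 FPKM with saline and at 35.5, 44.4 and 42.6 FPKM with thymopentin. The groups lay apart, the log2 fold change was -0.56 ± 0.31 and it was not called (limma adjusted p = 0.226). Psmb10 was at 78.2, 81.6 and 86.9 FPKM with saline and at 63.2, 58.8 and 67.2 FPKM with thymopentin, a log2 fold change of -0.38 ± 0.14. Psmb10 was called after median-ratio rescaling (limma adjusted p = 0.0344) and without TNBS thymopentin 3 (limma adjusted p = 0.0293). When the DSS groups were fitted alone both were called, Psmb8 at 0.0408 and Psmb10 at 0.0465 (limma adjusted p). Psmb9 was at 20.8, 19.1 and 18.7 FPKM with saline and at 14.0, 17.5 and 17.4 FPKM with thymopentin (log2 fold change -0.25 ± 0.15, limma adjusted p = 0.254).

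Cell type markers were read beside these values in DSS too. Smooth muscle markers summed to 2856 to 3403 FPKM with saline and to 1241 to 1885 with thymopentin, with no overlap, and Cnn1, Des and Tagln of 6 tested were called lower. Of 6 fibroblast markers Dcn and Lum were called lower, and of 8 macrophage and dendritic cell markers Fcgr1 was. Of 11 epithelial markers Cdh1 and Epcam were called higher. Beside these counts, 4.30% of all genes tested were called lower and 1753 of 13794 higher. Macrophage and dendritic cell sums (273 to 377 and 194 to 238 FPKM), fibroblast sums (138 to 167 and 118 to 136 FPKM) and endothelial sums (12.9 to 19.5 and 11.3 to 12.6 FPKM) also lay lower with thymopentin with no overlap. T cell sums (46.1 to 72.7 and 38.5 to 54.1 FPKM) overlapped, and no T, B, cytotoxic, pan-leukocyte or endothelial marker was called. Their part in the DSS values of the class I genes was not tested.

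The 2 responses were compared directly, as the difference of the thymopentin effect in DSS minus that in TNBS. Tap1, B2m and Psmb9 were called higher, which is 3 of 10, against 2.73% of all genes. The difference was 1.34 ± 0.34 on the log2 scale for Tap1 (limma adjusted p = 0.0494), 0.82 ± 0.20 for B2m (0.0436) and 0.89 ± 0.21 for Psmb9 (0.0407). With the replicate number as a block Tap1 was not called (limma adjusted p = 0.0607), while B2m and Psmb9 were. Nlrc5 had a difference of 1.13 ± 0.30 that missed the threshold (limma adjusted p = 0.0540). The other 6 genes had differences between 0.34 and 0.61 and none was called. All 10 were above 0, with a median of 0.58 against 0.11 over all genes. The 3 calls lay close to the threshold: none of the 10 genes was called with no filter on low values, after median-ratio rescaling, or when a single library was left out, for 8 of the 12 libraries (libraries 1 and 2 of TNBS saline, 1 and 3 of TNBS thymopentin, and 2 and 3 of both DSS groups). Only Nlrc5 was called without DSS saline 1 and only Psmb9 without DSS thymopentin 1, while 2 genes were called without TNBS saline 3 and 4 without TNBS thymopentin 2.

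The models were then compared under the same treatment. Under saline, 7 of the 10 genes were higher in DSS than in TNBS, against 15.2% of all genes, and Tapbp was lower, against 31.5%. Psmb8 rose most, by 2.05 ± 0.31 on the log2 scale (limma adjusted p = 0.000517), from a mean of 14.5 ± 5.34 to 60.6 ± 7.07 FPKM (SD, n = 3). B2m rose by 1.68 ± 0.14, Psmb9 by 1.25 ± 0.15, Tap2 by 1.19 ± 0.22, Nlrc5 by 1.16 ± 0.21, H2-D1 by 1.10 ± 0.17 and Psmb10 by 0.81 ± 0.14. In each of these 7 genes the lowest DSS library lay above the highest TNBS library, as in 18.8% of all genes. Tap1 was not called, at 0.23 ± 0.24 (limma adjusted p = 0.459), although its neighbours Psmb9 and Psmb8 were. H2-K1 was at 0.68 ± 0.26 (limma adjusted p = 0.0541) and was called after median-ratio rescaling (0.0172) or without TNBS saline 1 or DSS saline 1. Tapbp fell by 0.94 ± 0.26 (limma adjusted p = 0.0142), a call lost without TNBS saline 1 or DSS saline 1 (up to 0.0540). The median of all genes was -0.14 in this comparison, and that of the 10 was 1.13.

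Under thymopentin 9 of the 10 genes were higher in DSS, against 11.0% of all genes, and each of these 9 also had DSS libraries wholly above TNBS libraries, as in 18.7% of all genes. Psmb8, B2m, Nlrc5 and Psmb9 rose by 2.61 ± 0.31, 2.5 ± 0.14, 2.30 ± 0.21 and 2.14 ± 0.15 on the log2 scale. Tap1, H2-D1, Tap2, H2-K1 and Psmb10 rose by 1.15 to 1.56. Tapbp was at -0.46 ± 0.26 and was not called (limma adjusted p = 0.211). The model comparison under saline shares its TNBS saline and DSS saline libraries with the treatment comparisons, so these sizes are not separate evidence. All 9 calls under thymopentin were also made with any 1 of the 12 libraries left out. Cell type markers differed between the models too. Under saline 8 of 9 T cell, 4 of 4 cytotoxic, 8 of 8 macrophage and dendritic cell, 1 of 5 pan-leukocyte and 0 of 6 B cell markers tested were called higher in DSS. So were 5 of 6 fibroblast, 5 of 6 smooth muscle and 4 of 4 endothelial markers, and 6 of 11 epithelial markers were called lower. Over all genes 15.2% were called higher and 31.5% lower. Under thymopentin 8 of 9 T cell, 4 of 4 cytotoxic and 6 of 8 macrophage and dendritic cell markers were called higher. So were 1 of 6 fibroblast and 1 of 4 endothelial markers, but no smooth muscle, pan-leukocyte or B cell marker. Of 11 epithelial markers 2 were called higher and 5 lower, where 2275 of 13794 genes were lower. The part of the cell makeup in the model difference was not tested, and strain and model cannot be told apart. Class I heavy chains differ in sequence between strains. H2-Ea-ps, a class II gene that some mouse strains do not express, was listed at 0 FPKM in 11 of the 12 libraries. It was at most at 0.0540 FPKM, while its partner H2-Eb1 lay between 11.6 and 181 FPKM. These values do not identify a strain, and strain was not tested. These class II genes were chosen after their values were seen.

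The exchange of catalytic subunits was read as the ratio of inducible to constitutive FPKM in each library. Psmb9 to Psmb6 was 0.195, 0.274 and 0.186 in TNBS saline and 0.0812, 0.107 and 0.0746 in TNBS thymopentin, with no overlap. Psmb10 to Psmb7 was 2.28, 2.53 and 2.12 in TNBS saline and 1.47, 1.74 and 1.16 in TNBS thymopentin, again with no overlap. Psmb8 to Psmb5 was 0.219, 0.278 and 0.133 with saline and 0.0990, 0.143 and 0.0590 with thymopentin, and here TNBS saline 3 lay below TNBS thymopentin 2. In DSS the means of Psmb8 to Psmb5 were 0.830 ± 0.0696 with saline and 0.580 ± 0.0503 with thymopentin (SD, n = 3), and those of Psmb10 to Psmb7 were 4.14 ± 0.245 and 2.98 ± 0.123. Both of these pairs of DSS groups lay apart, and those of Psmb9 to Psmb6 overlapped, at 0.416 ± 0.0351 and 0.380 ± 0.0274. Psmb10 was the only inducible subunit above its constitutive counterpart, and it was so in all 12 libraries.

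Of the constitutive subunits in TNBS, Psmb5 had means of 68.4 ± 1.82 FPKM with saline and 61.4 ± 3.82 with thymopentin (SD, n = 3), Psmb6 35.5 ± 1.35 and 33.4 ± 1.70, and Psmb7 20.2 ± 0.475 and 19.4 ± 0.805. Every thymopentin library lay below every saline library for Psmb5 (log2 fold change -0.15 ± 0.11), while Psmb6 and Psmb7 overlapped. None of the 3 was called by thymopentin in either model. A ratio of this kind was also taken for the class I chains: B2m to the sum of H2-K1 and H2-D1 was 1.77, 1.80 and 2.05 in TNBS saline and 1.33, 1.40 and 1.30 in TNBS thymopentin, with no overlap. Its means in DSS were 3.09 ± 0.506 and 2.84 ± 0.237, which overlapped. Tap1 to Tap2 had means of 0.819 ± 0.222 and 0.456 ± 0.138 in TNBS, which overlapped, and of 0.399 ± 0.0609 and 0.516 ± 0.0277 in DSS, which lay apart. With 3 libraries a group an exact permutation test cannot go below p = 0.10, so none is given for these ratios.

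**Figure D4:**
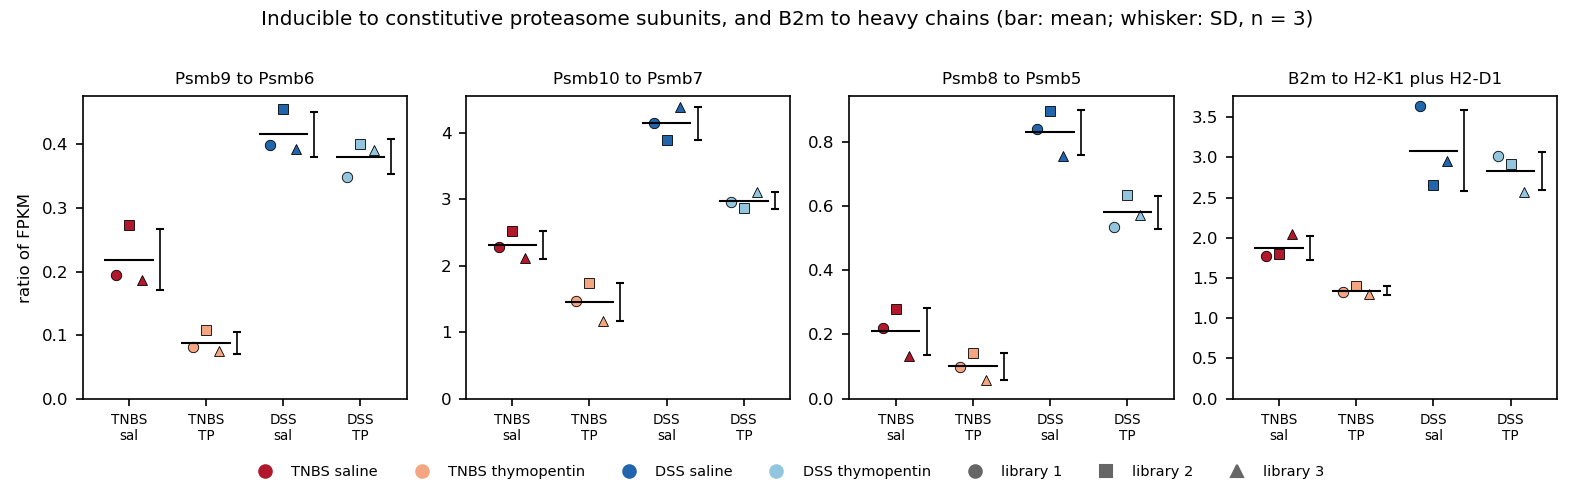
Ratio of FPKM in each library (vertical axis, from 0) for 3 inducible subunits over their constitutive counterparts and for B2m over H2-K1 plus H2-D1, with a bar for the mean and a whisker for the SD (n = 3). TNBS thymopentin has the lowest mean in each panel and DSS saline the highest, and for Psmb8 to Psmb5 the TNBS groups overlap.

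Other genes of the pathway were read from 8 lists. Of 16 further class I chain genes tested, 1 was called lower in TNBS, against 0.384% of all genes, and none in DSS, with medians of -0.43 and -0.07. This was H2-T23, whose product Qa-1 presents to the natural killer receptor CD94/NKG2, and it fell by 0.70 ± 0.10 in TNBS (limma adjusted p = 0.0178), from 66.7 ± 8.22 to 40.6 ± 3.98 FPKM (SD, n = 3). Its response differed between the models by 0.68 ± 0.15 (limma adjusted p = 0.0301). That of H2-Q2, a nonclassical class I gene, differed by 1.03 ± 0.24 (limma adjusted p = 0.0374). Class I genes resemble each other: 4.64% of the 100-base windows of H2-D1 and 7.28% of those of H2-T23 were also found in other genes of the reference annotation, as were 16.4% for H2-Q7, 14.2% for H2-T22 and 10.8% for H2-Q6, against 0 for H2-K1, B2m, Tap1, Tap2, the 3 proteasome subunits and Nlrc5. The sources used here do not say how the authors' counting treated such reads.

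Beyond Tap1, Tap2 and Tapbp, none of 9 further transport and loading genes was called by thymopentin in either model, and their medians were 0.01 in TNBS and -0.02 in DSS. The most abundant of them were Calr and Pdia3, general chaperones of the endoplasmic reticulum. Calr had means of 206 ± 7.80 and 216 ± 30.6 FPKM in TNBS and Pdia3 of 202 ± 16.3 and 197 ± 25.7 (SD, n = 3). Canx, a lectin chaperone, was at 60.9 ± 8.82 and 68.5 ± 4.78 FPKM in TNBS. The proteasome activator subunits Psme1 and Psme2, which cap the core particle, both lay lower with thymopentin in TNBS with no overlap and missed the threshold. Psme1 had a log2 fold change of -0.64 ± 0.13 (limma adjusted p = 0.0563) and Psme2 of -0.50 ± 0.11 (0.0687). Of 11 other core particle subunits and 19 regulatory cap subunits, none was called by thymopentin in either model. Their medians were -0.05 and -0.03 in TNBS.

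Of 22 regulators of class I genes tested beside Nlrc5, none was called in TNBS, and in DSS Irf2 was called higher and Socs1 lower, which is 2 of 22 against the 17.0% of all genes called in that comparison. Irf1, an interferon-induced activator and the most abundant of them, had means of 64.6 ± 7.99 and 37.5 ± 11.0 FPKM in TNBS and of 56.0 ± 30.5 and 82.5 ± 4.13 in DSS (SD, n = 3), with no call. The interferon gamma receptor chains Ifngr1 and Ifngr2, next in abundance, were at 50.9 ± 8.55 and 52.9 ± 10.1 FPKM and at 40.0 ± 3.91 and 35.6 ± 4.13 FPKM in TNBS, with no call. Stat2, which carries type I interferon signals, had a difference between the models of 1.14 ± 0.25 (limma adjusted p = 0.0301), with means of 8.12 ± 0.774 and 3.95 ± 0.483 FPKM in TNBS and of 12.8 ± 4.05 and 15.0 ± 1.16 in DSS. Socs1, an inhibitor of cytokine signals, fell in DSS by 0.70 ± 0.17 (limma adjusted p = 0.0222), and Irf2, which competes with Irf1 for its sites, rose by 0.55 ± 0.16 (0.0401). Ifng, the gene of interferon gamma, did not reach the filter. It had means of 0.174 and 0.812 FPKM in TNBS saline and DSS saline, was listed at 0 in the 3 TNBS thymopentin libraries, and was at 0.326 in DSS thymopentin.

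Of 5 tested genes of receptors that read class I molecules, none was called in TNBS and 2 were called lower in DSS, against 4.30% of all genes. Klrd1, the CD94 chain, fell by 0.63 ± 0.10 (limma adjusted p = 0.00471), from 9.29 ± 0.669 to 5.63 ± 0.518 FPKM (SD, n = 3). Klra2, of the Ly49 family, fell by 0.82 ± 0.17 (limma adjusted p = 0.0117). Cd8a had means of 1.20 ± 0.560 and 0.382 ± 0.232 FPKM in TNBS and was not called.

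**Figure D5:**
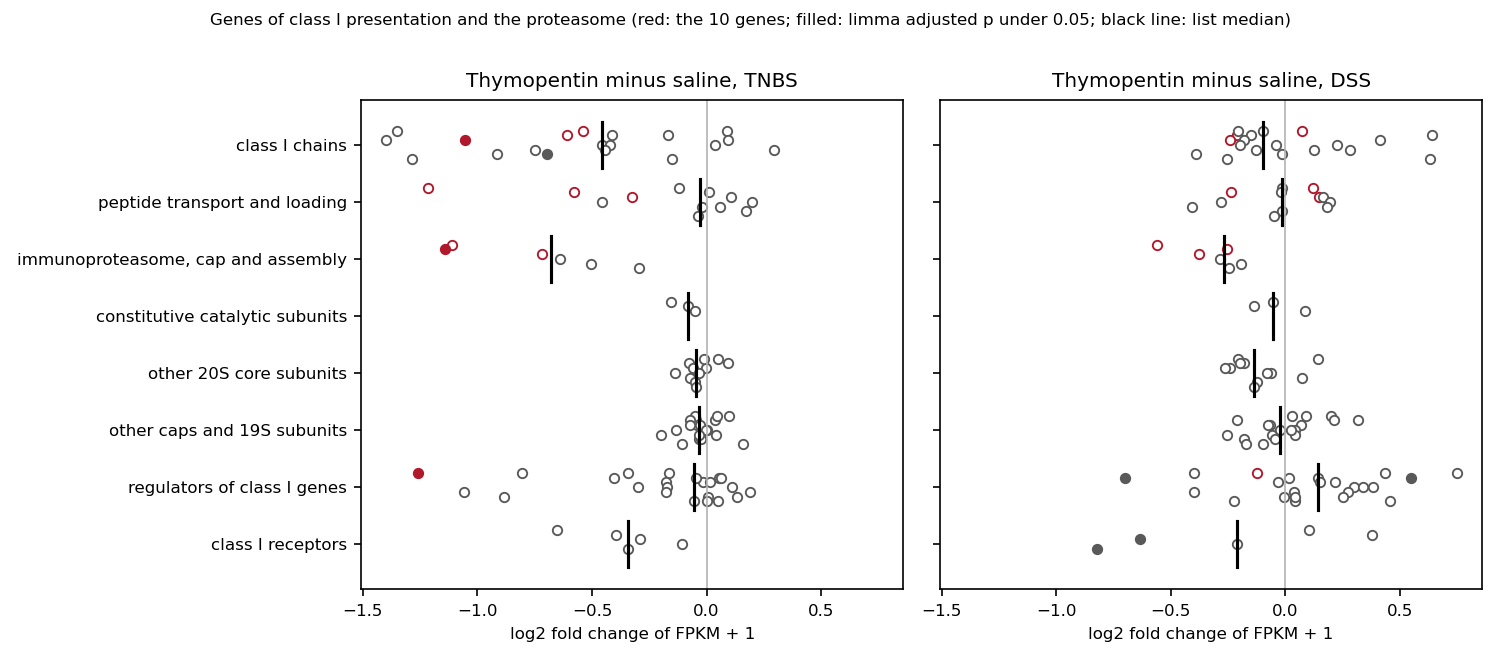
Log2 fold change of FPKM + 1 for thymopentin against saline in TNBS (left) and DSS (right), 1 point a gene, by pathway list, with the 10 genes in red, called genes filled and a black line at each list's median. In TNBS the class I chains and the immunoproteasome list spread to the left of 0 while the constitutive, core particle and cap subunits lie close to 0.

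The genes most like the set were ranked by the correlation of their log2(FPKM + 1) with the mean standardised level of the 10 genes over the 12 libraries. The 8 nearest were H2-Q7 (r = 0.991), Gbp7 (0.983), Uba7 (0.981), AW112010 (0.981), Cxcl9 (0.980), H2-T23 (0.980), H2-Q6 (0.979) and H2-Q5 (0.978), where the points share libraries and group differences. H2-Q7 and H2-Q6 share sequence with each other and with H2-D1, and H2-Q7 also with H2-Q5, so their reads may not be separate. After taking out the group means, r was highest for H2-Q7 (0.961), H2-Q5 (0.957) and AW112010 (0.952) among these 8. Within the set itself the correlation with that mean, which includes each gene itself, ran from 0.982 for H2-D1 down to 0.890 for H2-K1, and it was -0.44 for Tapbp. After taking out the group means it was 0.938 for H2-D1, 0.451 for H2-K1 and 0.509 for Tapbp, so the sign for Tapbp turned. Of the 8 similar genes, Cxcl9, a chemokine for T cells, and H2-T23 were called lower by thymopentin in TNBS, against 0.384% of all genes. None was called in DSS, against 17.0% of all genes. The 8 were picked over these same libraries with their group differences, so these calls follow from the ranking and are not separate evidence. H2-T23 was also counted among the class I chains. H2-Q7 had means of 11.96 and 4.25 FPKM in TNBS with saline and thymopentin and of 43.7 and 37.8 FPKM in DSS.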

How the data were processed

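The 12 libraries were strand-specific total RNA libraries of colon, per the labels' protocols. Per the submitters' processing notes, STAR 2.5, Cuffnorm, DESeq 1.22.1 and FastQC were used with build mm9, without saying for what, and the gene models were not stated in the sources used here. The authors deposited FPKM for 55335 genes. For selected genes they also deposited log2 values per library, with each gene's FDR, p-value and log2 fold change. Raised back from log2, 7326 of 7326 low values were whole reads within 0.01 reads, which gave the reads quoted. No count test was run, since only genes the authors had selected had reads.

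Groups and replicate numbers came from the treatment labels and titles. The model, fitted with limma 3.58.1 in R 4.3.3 on log2(FPKM + 1), had 4 group means, 8 residual degrees of freedom and an empirical Bayes trend over genes with a mean of at least 1 FPKM. P-values were two-sided, adjusted by Benjamini-Hochberg over all 13794 genes within each of 5 comparisons and called under 0.05. A fold change on this scale understates that of low genes. The script was tested on simulated data. All 10 genes are named; from the pathway lists, genes called by thymopentin or for the difference were named, and of lists with no such call those of highest mean, of which the text gives a selection; the 8 most similar genes leave out unnamed gene models. Ifng, the single markers and the class II genes were chosen after their values were seen. The genes and lists were chosen with earlier results of these data known. Promoter windows came from RefSeq on GRCm38.p6, while shared windows and neighbours came from GENCODE and RefSeq tables of that later build, so no coordinate belongs to the deposited files.

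Deviations from the group means correlated between saline and thymopentin libraries of the same number at 0.124, 0.268 and 0.476 in TNBS. In DSS these values were -0.136, 0.0427 and -0.140. TNBS saline 2 was nearer to thymopentin 1 (0.287) than to thymopentin 2. The sources used here do not say that equal numbers are pairs, and the main model did not pair them. Only the alternative fit with a block paired equal numbers, and it did so in both models, although the DSS values show no such pairs. Alternatives were another pseudocount, filter, scaling, weighting, block and samples. Protein sequences were not used here.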

Additional observations from a re-analysis of the deposited data

Results flagged for a closer look

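The response to thymopentin differed between the models, by a test of the difference itself in limma, for 3 of the 10 genes. These were called higher, as were 2.73% of all genes tested. Tap1 had a log2 fold change of -1.22 in TNBS and 0.12 in DSS, a difference of 1.34 (adjusted p = 0.0494). B2m had -1.06 and -0.24, a difference of 0.82 (adjusted p = 0.0436), and Psmb9 had -1.14 and -0.25, a difference of 0.89 (adjusted p = 0.0407). For 9 of the 12 libraries, leaving that library out left none of the 3 called, and with the replicate block Tap1 was not called (adjusted p = 0.0607). None of the 3 was called with no filter on low values or after median-ratio rescaling. With 3 libraries a group, single libraries were not tested as outliers.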

How the results depend on the processing

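In TNBS, 3 genes were called lower, 1 with no filter on low values, 5 after median-ratio rescaling, 5 after quantile normalization, 4 with a replicate block, 0 with the TNBS groups alone, 10 with array weights and 2 to 5 with a library left out. All 10 fold changes stayed below 0 under each of these. Of all genes tested 53 were called lower in TNBS in the main fit. With no filter it was 25, after median-ratio rescaling 64, after quantile normalization 65 and with the block 54. With the TNBS groups alone it was 5, and with array weights 956. In DSS, 0 were called in the fit of all groups, 1 after median-ratio rescaling, with a replicate block, or with array weights, 2 with the DSS groups alone and 0 to 1 with a library left out. Of all genes tested 593 were called lower in the fit of all groups, and 1019 after median-ratio rescaling. With the block 611 were, with array weights 1087 and with the DSS groups alone 557. The replicate block called Psmb8 in TNBS (adjusted p = 0.0319) and in DSS (0.0428), lost Tap1 in the difference (0.0607) and changed no other call, all in limma. For the difference, 3 genes were called, 0 with no filter or after median-ratio rescaling, 1 after quantile normalization, 2 with a replicate block, 5 with array weights and 0 to 4 with a library left out. Of all genes tested 376 were called higher for the difference in the main fit, and 223 after median-ratio rescaling. With no filter 187 were, after quantile normalization 225, with the block 267 and with array weights 1831. The weight estimates stopped before their set tolerance was reached. Between models, 8 genes were called under saline and 9 under thymopentin, and 8 and 9 with any 1 library left out. Under saline these were not always the same 8: without TNBS saline 1 or DSS saline 1, H2-K1 was gained as higher and Tapbp was lost.

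Fold changes that changed sign were all of thymopentin in DSS. After median-ratio rescaling H2-K1 was at -0.089, Tap1 at -0.027 and Tapbp at -0.0039; after quantile normalization B2m was at 0.19 and Tap1 at -0.013; with array weights Tapbp was at -0.070 and Nlrc5 at 0.015. With a library left out H2-K1 ran from -0.18 to 0.33, Tapbp from -0.065 to 0.43 and Nlrc5 from -0.22 to 0.036. The cause was not tested.

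Median-ratio rescaling changed the split of all called genes. In DSS 1753 were higher and 593 lower as deposited, and 800 and 1019 after rescaling. For the difference these were 376 and 334, and then 223 and 437. For DSS against TNBS under saline they were 2090 and 4341, and then 3031 and 2920. In TNBS the number of genes called was 92, 44 with no filter, 6 with the TNBS groups alone and 2547 with array weights. Depth limits low genes most: where reads are known, the fewest were 135 of Nlrc5, and for the DSS libraries they are not known for any of the 10.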
